A study of Drosophila melanogaster with 6 samples.

Results

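The genes described here are the Cpr genes of Drosophila melanogaster, the largest family of fly cuticle proteins, measured in the adult male proboscis. Members were all genes whose symbol in the platform's probe annotation starts with Cpr followed by a digit, which gave 66 genes of 11983 with a probe set of their own. One member, Cpr47Ef, had 2 such probe sets, and the one with the higher mean over the 6 arrays stood for it. The current RefSeq gene table lists 70 Cpr genes, and the other 4 (Cpr57A, Cpr65Ax1, Cpr65Ax2 and Cpr65Ay) had no probe set of their own in the annotation and are not analysed here.

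The flies compared were poxn70 homozygous males and poxn70 heterozygous males, with 3 biological replicates of each and 1 array per replicate. The heterozygotes carry 1 copy of the same allele, so neither group is wild type. Each array was made from pooled proboscises of between 164 and 280 males aged 8 to 18 days after eclosion. Pox neuro (Poxn) is a paired-domain transcription factor that gives bristles their chemosensory fate, and without it taste bristles develop as mechanosensory ones. All values are log2 GCRMA values (a background-corrected microarray signal, 1 value per probe set). A value under 3 was taken as background, and differences are homozygous minus heterozygous.

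Cpr proteins carry the Rebers-Riddiford domain, a stretch that binds chitin, and together with chitin they form the bulk of the exoskeleton. Their genes lie in clusters along the chromosomes, named after the cytological band in which they sit, so that Cpr49Aa to Cpr49Ah are neighbours or near neighbours in band 49A. Epidermal cells make most of these proteins in bursts around each moult under the control of ecdysone, and the proboscis cuticle includes the labellar lobes, the shafts and sockets of taste bristles, and the rigid parts around the pharynx.

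The tissue and the arrays were checked first. By the mean over the 6 arrays, all 6 taste neuron markers were above background. So were the 4 muscle markers and the 4 blood cell markers that were measured, whereas 1 of 4 measured fat body markers was. Of the taste neuron markers, Gr32a passed through the heterozygotes alone, with 2.31, 2.18 and 2.45 in homozygotes. Gr33a had a homozygous mean of 2.94, also under the limit of 3. The summed level of the taste neuron markers lay between 6.99 and 8.23 in homozygotes and between 11.23 and 11.87 in heterozygotes on the log2 scale. That of the blood cell markers lay between 11.91 and 12.42 in homozygotes and between 11.16 and 11.47 in heterozygotes, without overlap. Taken singly, Hml and PPO1 did not overlap between the genotypes, whereas PPO2 and NimC1 did. For the 2 measured markers of trachea and epidermis the summed level lay between 4.97 and 6.10 in homozygotes and between 4.59 and 5.20 in heterozygotes. The part of these markers in the differences reported was not tested. Over the 18769 probe sets, 0.314% were called lower and 0.0586% higher. Poxn gave values under 3 on all 6 arrays, so its probe set does not check the genotype labels. Homozygous replicate 1 stood apart, with correlations of 0.968 to 0.974 to the other arrays over all probe sets, against 0.983 to 0.996 among the other 5. In these pooled tissue samples, fewer cells of a type and less RNA per cell cannot be told apart.

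Most Cpr genes gave no signal above background in the adult proboscis. The mean over the 6 arrays was above 3 for 15 of the 66 members (22.7%), against 7600 of 11983 genes on the array (63.4%). Of the 51 others, 38 were flat, with 6 values that spanned less than 0.1, at means between 2.002 and 2.68. Of the 66 members, 48 had all 6 values under 3 and 14 had all 6 above it. The members just above the limit were Cpr64Ad (3.12) and Cpr97Eb (3.18), and those just below it were Cpr62Bc (2.96) and Cpr100A (2.88). Cpr64Ad passed the limit with 6 values between 3.06 and 3.17. Its span of 0.11 was wider than that of the 38 flat members, yet Cpr64Ad was the 1 member above 3 that spanned under 0.15. Probe sets differ in how strongly they bind their target, so values of different genes are not set against each other as amounts of RNA.

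**Figure D1:**
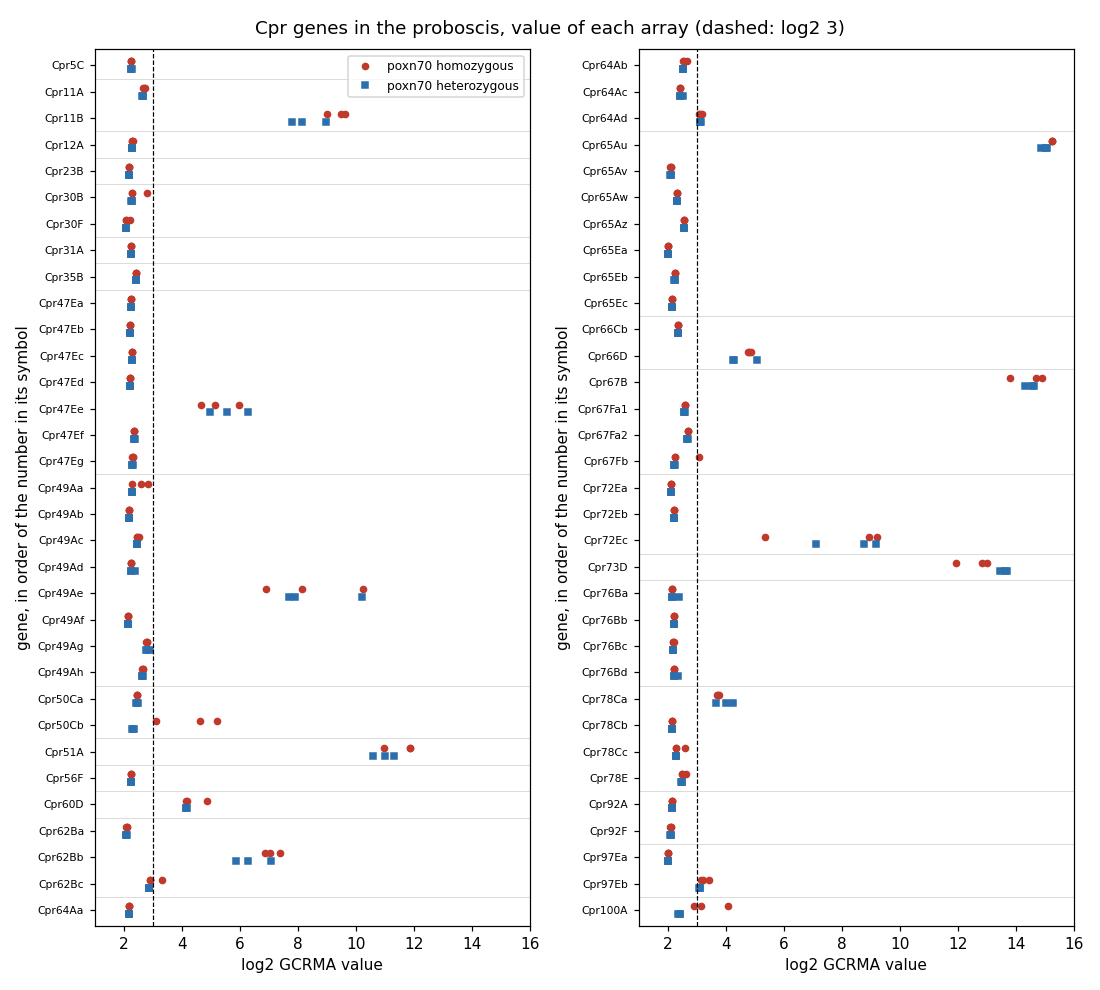
Log2 GCRMA values (horizontal axis) of all 66 Cpr genes (rows, ordered by the number in the symbol), with 1 point per array: red circles for poxn70 homozygous and blue squares for poxn70 heterozygous proboscises. The dashed line marks log2 3, and 51 genes have a mean at or below it.

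Within the genomic clusters, no more than 1 gene with a Cpr name had a mean above 3. Genes of other names were not counted, and the 65A cluster also held Lcp65Ag3, Lcp65Ac and Acp65Aa, which carry the same domain and had means of 7.52, 4.25 and 4.95. The number in the symbol sorted the 66 genes into 25 bands, of which 15 held more than 1 member (56 genes together). In 12 of these 15, exactly 1 member had a mean above 3, and in the other 3 (bands 30, 76 and 92) none had. The 47 band had Cpr47Ee as 1 of 7 members, the 49 band had Cpr49Ae as 1 of 8, and the 65 band had Cpr65Au as 1 of 7. The 67 band had Cpr67B as 1 of 4, the 64 band Cpr64Ad as 1 of 4 and the 78 band Cpr78Ca as 1 of 4. Cpr62Bb and Cpr72Ec were each 1 of 3 in theirs, and Cpr11B, Cpr50Cb, Cpr66D and Cpr97Eb each 1 of 2. Of the 10 bands with a single member, 3 had it above 3, namely Cpr51A, Cpr60D and Cpr73D.

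This count depends on where the limit is set and on which mean is taken. By the mean of either genotype, 17 members were above 3, with Cpr62Bc (homozygous mean 3.03) and Cpr100A (3.37) added. Band 62 then held both Cpr62Bb and Cpr62Bc. At a limit of 4, 8 of the 15 bands kept 1 member and 7 had none, and none had 2. At a limit of 2.8, which was chosen after the values were seen, 2 bands had 2 members above it, because Cpr62Bc passed beside Cpr62Bb and Cpr49Ag beside Cpr49Ae. With the first letter of the symbol added, so that 65A and 65E are separate, 12 groups held more than 1 member, of which 9 had 1 above 3 and 3 had none.

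**Figure D2:**
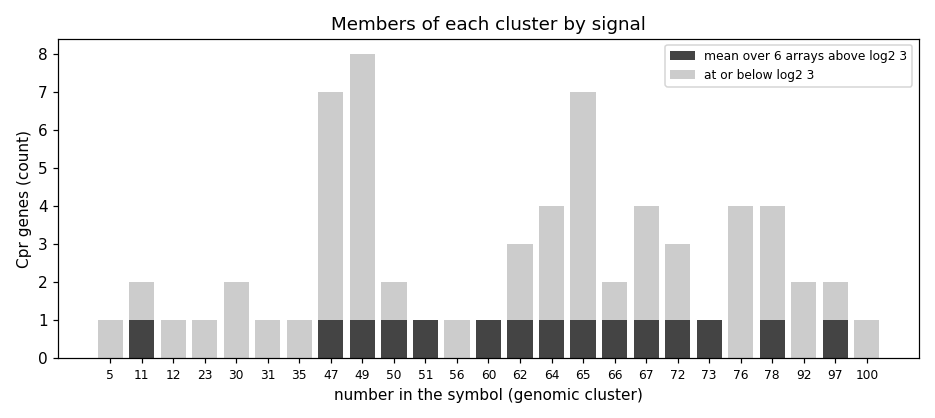
Number of Cpr genes (vertical axis) for each number in the symbol (horizontal axis), split into genes with a mean over 6 arrays above log2 3 (dark, at the bottom) and at or below it (light). The dark part is never taller than 1 gene, also in the bands of 7 and 8 genes.

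Gene order in RefSeq was used to look at direct neighbours, again among genes with a Cpr name. Of the 66 members, 40 lie directly next to another Cpr gene among protein-coding genes, and 7 of these (17.5%) were above 3. Of the 26 members without such a neighbour, 8 (30.8%) were. None of the 15 members above 3 lies directly next to another of them. This follows from the count by band, because Cpr genes that are direct neighbours share the number in the symbol. Cpr47Ee stands between Cpr47Ed and Cpr47Ef, and Cpr62Bb between Cpr62Ba and Cpr62Bc, all of which had means under 3. By chromosome arm, 8 of 32 members on 3L, 5 of 20 on 2R, 1 of 4 on X, 1 of 5 on 3R and 0 of 5 on 2L were above 3.

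Between the genotypes, no Cpr gene passed the adjusted threshold. Differences were fitted with limma over all 18769 probe sets, and the smallest adjusted p among the 66 members was 0.479. Over the 11983 genes, 0.442% were called lower and 0.0751% higher, so calls were rare throughout the array. At an unadjusted p under 0.05, 1 member was lower (3.86% of all genes were) and 3 were higher (4.84% of all genes), and without the intensity trend the counts were 1 and 4, again with 0 adjusted calls. With the replicate number as a block, 1 member was lower and 9 were higher at an unadjusted p under 0.05, against 4.24% and 9.35% of all genes. No member passed the adjusted threshold with the block (smallest limma adjusted p = 0.334). Among the members with means above 3, 1 was lower and 2 were higher at an unadjusted p under 0.05, against 5.82% and 6.64% of the 7600 genes above 3. With the block the counts were 1 and 4, against 6.43% and 7.79%. The median difference was 0.0036 over the 66 members and 0.0047 over all genes, and 47 members differed by less than 0.1.

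The 4 members with the smallest p-values were Cpr50Cb, Cpr73D, Cpr100A and Cpr11B, none of which was called. Cpr50Cb read 3.09, 4.62 and 5.22 in homozygous replicates 1, 2 and 3, against 2.28, 2.33 and 2.32 in the heterozygous ones. All 3 heterozygous values lay at background and all 3 homozygous values above it, with homozygous replicate 1 close to the limit. The homozygous mean was 4.31 ± 1.10 and the heterozygous mean 2.31 ± 0.03 (SD, n = 3 each), and with the heterozygous level bounded by the limit of 3 the homozygous signal was at least 2.48-fold higher (limma adjusted p = 0.479). Without homozygous replicate 1, the array that stood apart, the limma fit put Cpr50Cb past the threshold (difference 2.61, adjusted p = 0.0371). Over 15 alternatives, which did not include setting values under 3 to 3, the limma adjusted p ran from 0.0371 to 0.852. Without both arrays numbered 1 it was 0.114. Its neighbour in name, Cpr50Ca, stayed between 2.43 and 2.47 on all 6 arrays. Cpr50Cb lies on 2R, the arm that also holds Poxn, and a difference that comes from the poxn70 chromosome itself and one that comes from loss of Poxn cannot be told apart in this design.

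Cpr73D, on 3L, was the member with the lower homozygous values. It read 11.93, 12.82 and 13.02 in homozygous replicates 1, 2 and 3, against 13.64, 13.44 and 13.71 in heterozygous ones. The groups did not overlap, and homozygous replicate 1 was the lowest array. The difference was -1.01 (95% interval -1.79 to -0.22, limma adjusted p = 0.559), a 2.01-fold lower signal. Without homozygous replicate 1 it was -0.68 (adjusted p = 0.195), and without both arrays numbered 1 it was -0.66 (adjusted p = 0.258).

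Cpr100A, the 1 member of its band on 3R, read 4.08, 2.89 and 3.16 in homozygotes against 2.41, 2.42 and 2.34 in heterozygotes. The groups did not overlap, yet 1 homozygous value lay under the limit and the mean over 6 arrays was 2.88. The homozygous mean was 3.37 ± 0.62 and the heterozygous mean 2.39 ± 0.04 (SD, n = 3 each), a signal at least 1.30-fold higher in homozygotes by the same bound (limma adjusted p = 0.586). Without homozygous replicate 1, which held the highest value, the difference was 0.63 (adjusted p = 0.104), against 0.98 with all arrays.

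Cpr11B, on the X chromosome, had 9.497, 8.99 and 9.61 in homozygotes against 8.97, 7.80 and 8.14 in heterozygotes. The groups did not overlap, with a gap of only hundredths between homozygous replicate 2 and heterozygous replicate 1. The difference was 1.07 (95% interval 0.16 to 1.97, limma adjusted p = 0.611), a 2.09-fold higher signal in homozygotes. Cpr11A, the other member of the band, was at background on every array (2.63 to 2.71).

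**Figure D3:**
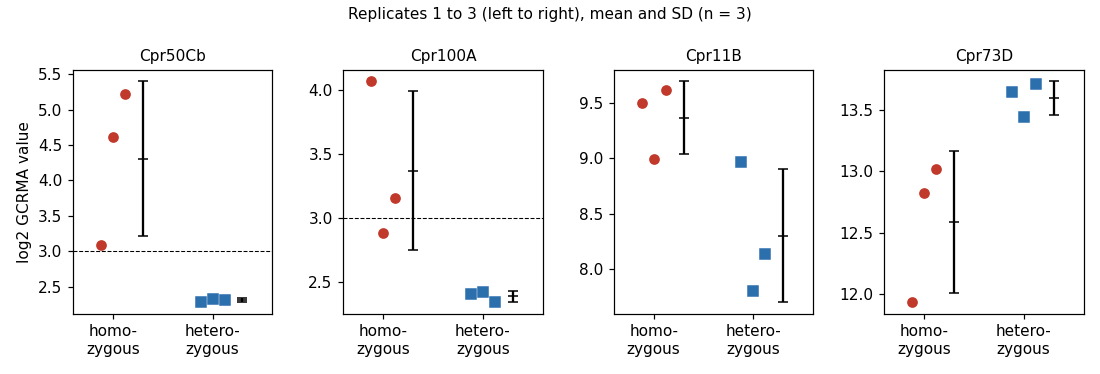
Log2 GCRMA values (vertical axis, scaled separately for each gene) of Cpr50Cb, Cpr100A, Cpr11B and Cpr73D in the 3 homozygous (red, left) and 3 heterozygous (blue, right) arrays, with mean and SD beside them and log2 3 dashed where it falls in range. The groups do not overlap for any of the 4, and homozygous replicate 1 is the lowest homozygous array for Cpr50Cb and Cpr73D and the highest for Cpr100A.

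Among the other members with a mean above 3, Cpr65Au had nearly equal values in the homozygous replicates. It read 15.25, 15.25 and 15.25 in homozygotes against 14.88, 15.06 and 15.04 in heterozygotes, close to the top of the scale (the highest value on any array was 16.02). The groups did not overlap, and the difference was 0.26 (95% interval -0.03 to 0.55, limma adjusted p = 0.611). Cpr65Au was the 1 measured Cpr-named gene of its band with a mean above 3, and its direct neighbour Lcp65Ag3 was also above it. Cpr65Ax1, Cpr65Ax2 and Cpr65Ay of the same band had no probe set of their own. The other 6 members of band 65 (Cpr65Av, Cpr65Aw, Cpr65Az, Cpr65Ea, Cpr65Eb and Cpr65Ec) had means from 2.002 to 2.56.

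Cpr67B and Cpr51A also gave strong signals. Cpr67B read 13.79, 14.69 and 14.91 in homozygotes against 14.31, 14.62 and 14.56 in heterozygotes, and the groups overlapped (difference -0.03, 95% interval -0.86 to 0.79, limma adjusted p = 0.958). Its difference changed sign under 4 alternatives, to 0.31 at the most, without homozygous replicate 1. Cpr51A read 11.85, 10.97 and 11.88 in homozygotes against 11.33, 10.61 and 10.99 in heterozygotes, and the groups overlapped (difference 0.59, 95% interval -0.24 to 1.42, limma adjusted p = 0.611). Within each pair of arrays with the same number the homozygous value of Cpr51A was the higher, and with the replicate block its unadjusted limma p was 0.0240, against 0.127 without it (adjusted p = 0.334 with the block). Cpr51A lies on 2R, in the band next to that of Cpr50Cb by number.

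Cpr62Bb read 6.88, 7.03 and 7.39 in homozygotes against 5.86, 6.28 and 7.08 in heterozygotes. The groups overlapped through heterozygous replicate 3 (difference 0.69, 95% interval -0.24 to 1.62, limma adjusted p = 0.611). With the replicate block its unadjusted limma p was 0.0471, against 0.114 without it (adjusted p = 0.334 with the block). Cpr47Ee read 5.97, 4.66 and 5.14 in homozygotes against 6.29, 4.97 and 5.55 in heterozygotes, with an interval of -1.64 to 0.94. In both genotypes replicate 1 of Cpr47Ee was the highest, and each homozygous value lay under the heterozygous value of the same number.

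Cpr60D, Cpr78Ca and Cpr97Eb, dim members above the limit, had small differences in mean. Cpr60D had homozygous values of 4.87, 4.18 and 4.15 against heterozygous values of 4.13, 4.14 and 4.19, so homozygous replicate 1 alone stood out. Cpr78Ca had 3.76, 3.74 and 3.69 in homozygotes against 3.65, 4.26 and 4.01 in heterozygotes. Cpr97Eb had 3.42, 3.22 and 3.14 in homozygotes against 3.11, 3.11 and 3.06 in heterozygotes, without overlap and within 0.36 of each other. The 95% intervals of their differences were -0.36 to 0.86 for Cpr60D, -0.70 to 0.20 for Cpr78Ca and -0.04 to 0.37 for Cpr97Eb.

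**Figure D4:**
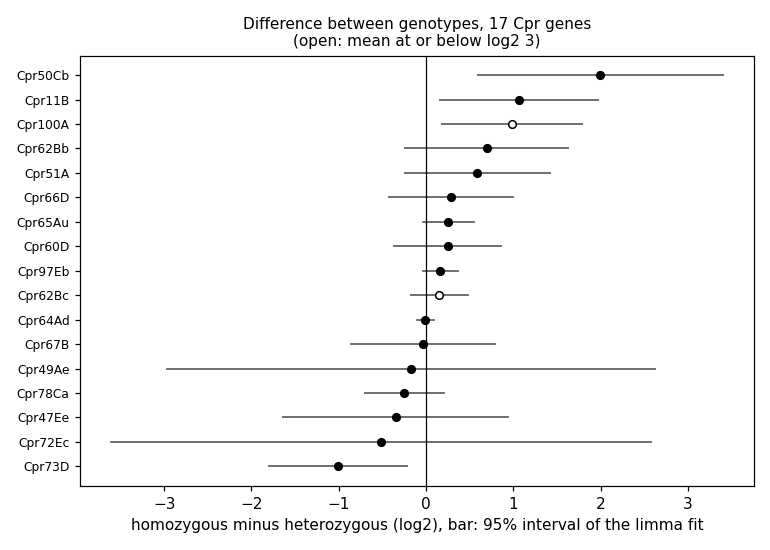
Difference between genotypes (homozygous minus heterozygous, log2, horizontal axis) with its 95% interval from the limma fit for 17 Cpr genes (rows), namely the 15 with a mean above log2 3 and the 2 just below it (open circles). Intervals of Cpr50Cb, Cpr11B, Cpr100A and Cpr73D lie to one side of 0 before adjustment, and those of Cpr49Ae and Cpr72Ec are the widest.

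The widest spread between replicates was in Cpr72Ec and Cpr49Ae, and the same 2 arrays stood out in both. Cpr72Ec, a protein of the corneal lens of the fly eye, read 9.21, 8.93 and 5.36 in homozygotes against 7.10, 8.78 and 9.17 in heterozygotes. It was lowest in homozygous replicate 3 and heterozygous replicate 1. Cpr49Ae read 8.13, 6.90 and 10.23 in homozygotes against 10.20, 7.89 and 7.69 in heterozygotes. It was highest in those same 2 arrays. The homozygous SD was 2.15 for Cpr72Ec and 1.68 for Cpr49Ae (n = 3), and the 95% intervals of the differences were -3.61 to 2.58 and -2.97 to 2.63, so the data allow large differences in either direction for both genes. Without homozygous replicate 3 the difference of Cpr72Ec was 0.72, against -0.52 with all arrays. Without heterozygous replicate 1 that of Cpr49Ae was 0.63, against -0.17 with all arrays, and without homozygous replicate 2 it was 0.59.

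Most of the measured genes of photoreceptor cells set the same 2 arrays apart. Of the 4 eye markers in the marker list, trp (a light-activated channel) was the 1 measured here. It read 7.61, 10.19 and 6.71 in homozygotes against 7.30, 9.95 and 9.95 in heterozygotes. A longer list of 20 phototransduction genes, chosen after these values were seen, had 12 measured members, all 12 above 3. Their median was 9.03, 9.96 and 6.71 in homozygous replicates 1, 2 and 3, against 7.97, 9.68 and 9.66 in heterozygous ones. Their summed level ranged from 12.36 to 15.14 in homozygotes and from 13.09 to 15.004 in heterozygotes on the log2 scale. In 10 of the 12, homozygous replicate 3 and heterozygous replicate 1 were the 2 lowest arrays, a pattern shown by 3.16% of the 7600 genes above 3 (the opposite pattern, seen in Cpr49Ae, by 3.45%). inaC, the eye protein kinase C, read 8.70, 8.20 and 4.77 in homozygotes against 6.47, 7.91 and 8.23 in heterozygotes, which puts the 6 arrays in the same order as Cpr72Ec does. The part of eye tissue in the values of Cpr72Ec or Cpr49Ae was not tested.

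Cpr66D and retinin, both also lens proteins, did not share that order. Cpr66D read 4.78, 4.82 and 4.86 in homozygotes against 4.28, 4.26 and 5.06 in heterozygotes, with homozygous replicate 3 among its higher arrays. retinin, which is no Cpr gene, read 6.42, 4.996 and 2.82 in homozygotes against 4.21, 4.29 and 3.97 in heterozygotes, low in homozygous replicate 3 but not set apart in heterozygous replicate 1.

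**Figure D5:**
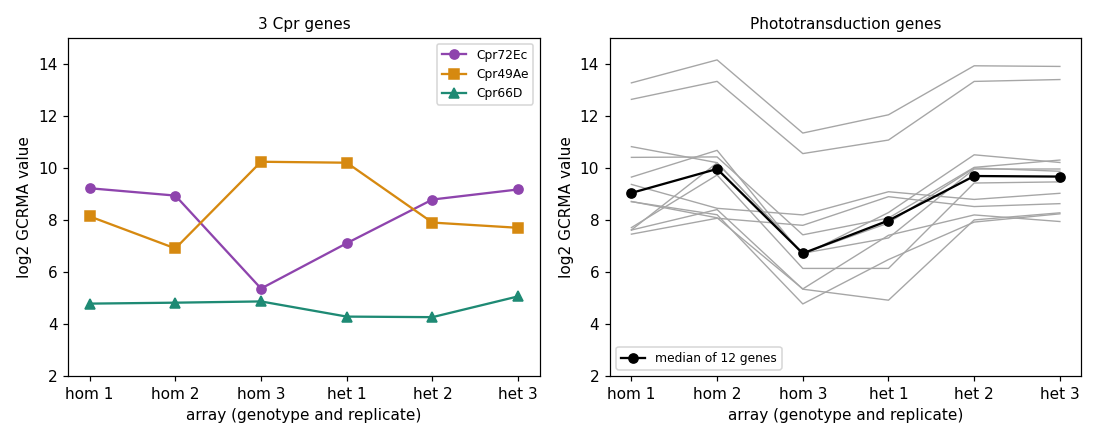
Log2 GCRMA values (vertical axis) on each array (horizontal axis, hom for homozygous and het for heterozygous with the replicate number) for Cpr72Ec, Cpr49Ae and Cpr66D (left panel) and for 12 phototransduction genes (right panel, grey lines, median in black). Homozygous replicate 3 and heterozygous replicate 1 are the 2 lowest arrays for Cpr72Ec and for the median of the phototransduction genes, and the 2 highest for Cpr49Ae.

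Of the 51 members at or below the limit, 45 differed by less than 0.1 between the genotype means. The other 6 were Cpr100A (0.98), Cpr67Fb (0.29), Cpr49Aa (0.29), Cpr30B (0.18), Cpr62Bc (0.15) and Cpr78Cc (0.11). Of the 51, 13 spanned 0.1 or more over the 6 arrays, and homozygous replicate 1 was the highest array in 7 of the 13. Among all genes at or below 3, whatever their span, it was the highest in 22.8%. Among the 66 members it was the highest in 15, against 30.8% of all genes. Homozygous replicate 3 was the highest in 28 of the 66 (42.4%), against 25.7% of all genes and 40.4% of genes at or below 3. It was the highest in 0 of the 13 with a span of 0.1 or more. Cpr67Fb read 3.06 in homozygous replicate 1 and 2.22 to 2.26 on the other 5 arrays, and Cpr30B read 2.795 there and 2.26 to 2.27 elsewhere. Cpr62Bc read 3.33 there and 2.87 to 2.89 elsewhere. Cpr49Aa, on 2R, had its higher values in homozygous replicates 2 and 3 in place of 1, with 2.28, 2.83 and 2.57 in homozygotes against 2.27, 2.27 and 2.28 in heterozygotes. Over the 66 members the groups did not overlap in 14 with higher and 1 with lower homozygous values (21.2% higher), against 16.3% and 5.82% of all genes. Of the members above 3, the groups did not overlap in 4 with higher and 1 with lower homozygous values, against 13% and 8.58% of genes above 3. Of the 15 members without overlap, 10 had means at or below 3, and their median absolute difference was 0.058.

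By cluster, the median difference was under 0.1 in size in 10 of the 15 bands with more than 1 member. It was 0.0027 in band 47, 0.0031 in band 49 and 0.0033 in band 65, and in each of these bands the members without signal set the median. In 3 bands it lay between 0.1 and 0.5, with 0.15 in band 62, 0.14 in band 66 and 0.11 in band 30, where no member was above 3. Without homozygous replicate 1 it was 0.0070 in band 62 and 0.034 in band 30. The other 2 bands had a median difference above 0.5 in size. These were band 50, at 0.999 (Cpr50Cb 1.998, Cpr50Ca -0.00041), and band 11, at 0.55 (Cpr11B 1.07, Cpr11A 0.04), and in both a single gene made the value. No band held more than 1 member with an unadjusted p under 0.05. By arm, the median was 0.0036 on 2R over 20 members and 0.0035 on 3L over 32.

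Other genes of the cuticle were set beside the family. Rebers-Riddiford genes with other names were also mostly without signal, with 3 of 15 measured above 3. They were Lcp65Ag3 (difference 0.89, limma adjusted p = 0.611), Lcp65Ac (0.11) and Acp65Aa (-0.01), 3 genes of the 65A band, and 0 were called. Tweedle genes, a second family of structural cuticle proteins, had 2 of 24 above 3. TwdlT read 11.68, 11.89 and 11.96 in homozygotes against 10.39, 11.13 and 10.67 in heterozygotes, without overlap (difference 1.12, 95% interval 0.57 to 1.67, limma adjusted p = 0.230), and TwdlG differed by 0.39. Chitin-binding cuticle proteins had 4 of 6 above 3, with obst-E at a difference of 0.35, Peritrophin-A at 0.38 and Gasp, a protein of the tracheal and epidermal cuticle, at -0.33.

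Most genes for making and tanning cuticle were above the limit, as were 63.4% of all genes. Of 26 measured genes of chitin synthesis and remodelling, 20 were above 3 (76.9%), and of 20 tanning and pigmentation genes 13 were (65%). None of these was called in either direction. Of the 20 chitin genes above 3, 8 had higher and 12 had lower homozygous means, with a median difference of -0.075. kkv, the chitin synthase of epidermis, read 3.93, 4.30 and 4.70 in homozygotes against 3.63, 3.34 and 2.85 in heterozygotes (difference 1.03, limma adjusted p = 0.481). Cht10, a chitinase, read 6.14, 5.70 and 5.68 in homozygotes against 4.80, 4.78 and 4.82 in heterozygotes (difference 1.04, limma adjusted p = 0.299), without overlap in either gene. Gfat2, which feeds sugar into chitin synthesis, differed by -0.43. Of the 13 tanning genes above 3, 12 had higher homozygous means, as did 54.5% of all genes above 3, with a median difference of 0.33 against 0.04 over all genes above 3, and with Pu at 0.64 (limma adjusted p = 0.372), yellow-h at 0.73 and yellow-f at 0.99. At an unadjusted p under 0.05, 3 of the 20 were higher and 0 lower, against 4.84% and 3.86% of all genes. The median difference over all 20 was 0.13, a value that single arrays moved. It was 0.0018 without heterozygous replicate 1 and 0.0037 without homozygous replicate 3. It was 0.32 with homozygous replicate 1 left out, and 0.23 or 0.29 with heterozygous replicate 2 or 3 left out.

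A single gene among all these lists was called. nompA, a ZP-domain protein that links sensory dendrites with the cuticle of bristles, read 4.05, 3.85 and 3.95 in homozygotes against 7.61, 8.97 and 8.26 in heterozygotes (difference -4.33, limma adjusted p = 0.0324). With the replicate block its adjusted p was 0.298, and over the same 15 alternatives as for Cpr50Cb it ran from 0.0031 to 0.298. Of the 9 measured genes of its list, 1 was called lower and 0 were called higher, against 0.442% and 0.0751% of all genes. Of the other ZP-domain genes with means above 3, neo (difference 0.58) and qsm (0.18) had the smallest p-values. Among 10 measured regulators of epidermal and cuticle genes, 0 were called and 3 were lower at an unadjusted p under 0.05, against 3.86% of all genes and 5.82% of genes above 3. They were rib, an epidermal and tracheal BTB factor, with 3.08, 2.85 and 2.85 in homozygotes against 6.15, 5.19 and 4.72 in heterozygotes (limma adjusted p = 0.143), Hr3, an ecdysone-response nuclear receptor (difference -0.99), and EcR, the ecdysone receptor (difference -0.36). nompA, rib, Hr3 and EcR all lie on 2R, the arm of Poxn, where the poxn70 chromosome itself and loss of Poxn cannot be told apart.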

How the data were processed

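RNA of 6 pooled proboscis samples, about 50 ng amplified in 2 rounds, was measured on single-colour Affymetrix arrays, per the labels' protocols. The authors deposited 1 log2 value per probe set, made with GCRMA according to the submitters' processing notes, which name no version. Values ran from 1.57 to 16.02, which is how their log2 scale was recognised. GCRMA draws probe sets without signal into a narrow low band. The number of arrays limits the precision.

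Of 18952 probe sets, 183 controls were left out. Of the 18769 others, 13647 had 1 gene in the platform annotation, 402 had several and 4720 had none. Probe sets with several genes, 4 of them with a Cpr gene, named no gene, and a gene with several probe sets took the brightest by mean. RefSeq (Release 6 plus ISO1 MT) matched all 66 members and gave names, arms and gene order only.

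The comparison used limma 3.58.1 under R 4.3.3 (linear fit, moderated by eBayes with an intensity trend), with Benjamini-Hochberg adjustment over all 18769 probe sets and a threshold of 0.05. The fit was tested on simulated data. Where all 3 values of a group were under 3, the fold is a bound against 3. Members and lists were chosen with earlier results of these data known. The text names the members with the 12 highest means, the 12 smallest p-values among those above 3 and the 2 on either side of the limit, up to 3 genes of each cuticle list by smallest p among those with means above 3, and every called gene of the lists. Other genes named (retinin, trp, inaC, Cpr30B, Cpr49Aa, Cpr67Fb, Cpr78Cc and dim members of a band) were chosen after their values were seen.

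Deviations of arrays with the same replicate number correlated at 0.372, 0.288 and 0.142. Homozygous replicate 3 correlated more with heterozygous replicate 2 (0.275), and homozygous 2 with heterozygous 3 at 0.129. All 3 same-number values pass the limit set for pairing (0.1), and no label states such a pairing. Both different-number values given above pass that limit too, so among arrays numbered 2 and 3 it cannot tell same-number arrays from others. The different-number values with an array numbered 1 lay between -0.349 and -0.169 and did not pass. The values reported come from the fit without the block, and blocked values are named as such. Alternatives were the replicate block, no trend, 2 other scalings, leaving out the dimmer 50% of probe sets, a floor at 3, averaged probe sets, another limit and each array left out. A random block, leaving out both arrays numbered 1, and the block without the dimmer 50% were added after seeing the data.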

Additional observations from a re-analysis of the deposited data

How the results depend on the processing

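Calls were not counted with the floor at 3, under which the median difference of band 50 was 0.65, against 0.999 without the floor. No Cpr gene was called lower under any other alternative, and 1 was called higher (Cpr50Cb) without homozygous replicate 1. The counts of calls thus ranged from 0 to 1 over the fits that left out 1 array. The count of members above the limit was 11 at a limit of 4, and 14 with all 6 arrays required. Over all probe sets, 59 were lower and 11 higher. These counts were 0 and 0 with the replicate block, 35 lower without the intensity trend, 117 and 35 with arrays centred on their median, and 123 and 34 after leaving out the dimmer 50%. They were 117 and 50 for a random replicate block, 9 and 0 without both arrays numbered 1, and 74 and 18 for the block without the dimmer 50%, against the 0 and 0 of the block alone. Leaving out 1 array gave 6 to 54 lower and 0 to 12 higher. Of 253 values for the 17 named members, 11 reversed, and the cause was not tested. Cpr67B reversed to 0.024 with quantile normalization, 0.31 without homozygous replicate 1, 0.029 without heterozygous replicate 2 (its range over left-out arrays was -0.26 to 0.31), and 0.21 without both arrays numbered 1. Cpr49Ae reversed to 0.59 and 0.63 without homozygous replicate 2 or heterozygous replicate 1 (range -1.08 to 0.63), and to 0.77 without both arrays numbered 1. Cpr72Ec reversed to 0.72 without homozygous replicate 3 (range -1.21 to 0.72). Cpr64Ad reversed to 0.033 with quantile normalization, 0.022 without homozygous replicate 1 (range -0.035 to 0.022) and 0.021 without both arrays numbered 1. The family median stayed between -0.0013 and 0.0099 over the alternatives run, with a sign change under quantile normalization only, where the median over all genes was -0.00018. The call of nompA ended with the replicate block, without the trend, without both arrays numbered 1, and without any 1 array other than heterozygous replicate 1. rib was called with arrays centred on their median (adjusted p = 0.0273), after leaving out the dimmer 50% (0.0425) and for a random replicate block (0.0490). The taste neuron markers Gr33a and Gr32a were called lower without the block (limma adjusted p = 0.0192 and 0.0176) and not with it (0.268 and 0.267). No other call among the genes named changed with the replicate block.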
